A study of Bos grunniens with 6 samples.

Results

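The genes described here carry the ligands, receptors, transducers and inhibitors of the Wnt, TGF-beta, Hedgehog and Notch pathways. They were taken from the list of m6A peaks by gene symbol alone (WNT, FZD, TGFB, BMP, SMAD, NOTCH and related names), a rule that uses no measured value. The rule found 139 of the 16186 listed peaks, on 87 of the 8986 gene identifiers with a peak and under 78 symbols. Of the 87 identifiers, 30 were assigned to the Wnt pathway, 29 to TGF-beta and BMP, 13 to Notch and 6 to Hedgehog. The other 9, such as *BMP1*, *BMP2K* and *TGFBI*, match by name but are not core parts of a pathway. They are counted among the members, with the main shares also given without them, and left out of the order of expression.

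These pathways let cells of a tissue instruct their neighbours. Secreted WNT proteins bind Frizzled (FZD) receptors with the co-receptor LRP6 and keep beta-catenin from being destroyed, whereas ligands of the TGF-beta family, including the activins and BMPs, bind receptor kinases that phosphorylate SMAD proteins. Hedgehog ligands relieve the block that PTCH puts on SMO, and Notch receptors, once bound by a JAG or DLL ligand on the next cell, release an intracellular part that acts with MAML coactivators on *HES* and *HEY* genes. In the testis, Sertoli cells secrete activins and inhibin as well as the Hedgehog ligand DHH, which acts on Leydig and peritubular myoid cells.

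Testis tissue came from 3 cattle-yaks (TES5, TES6 and TES7), the male-sterile hybrid of yak and cattle, at 5 years of age and by castration. Each animal gave 1 library of fragmented poly(A) RNA pulled down with an m6A antibody (IP) and 1 library of the same RNA without pull-down (input), and all 6 libraries belong to the same untreated condition. Stretches richer in IP than in input had been called as peaks, in 1 list for the group with no score and no value per animal, so that no spread between animals can be given for a peak. Expression was given per animal for the input only, as FPKM (a fragment count scaled by transcript length and by the mapped fragments of the library).

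No comparison of conditions was possible, and the depth behind the values is not known from the tables used here. The sum of FPKM over all 20953 genes was 302365 in TES5, 280940 in TES6 and 285927 in TES7. Markers of the testis were found, including the Sertoli cell gene *SOX9* at 27.5 ± 0.81 FPKM (SD, n = 3), the Leydig cell gene *STAR* at 107 ± 5.95 and the smooth muscle gene *ACTA2* at 237 ± 14.7. All 5 symbols of the peritubular myoid list and all 5 of the endothelial list had a peak, as did 4 of 9 for Sertoli cells, 1 of 7 for Leydig cells, 3 of 5 for macrophages, 3 of 7 for spermatogonia, 5 of 8 for spermatocytes and 1 of 8 for spermatids. The whole series had 8986 identifiers with a peak, 211 of them without FPKM, and 20953 identifiers with FPKM. These counts are therefore not read as a trait of a cell type. Symbols are paired with identifiers only in the peak list, so that a marker without a peak has no expression value here. In whole tissue, fewer cells of a type and less RNA per cell cannot be told apart.

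Sequence was at hand for a single member, *FZD8*, a Frizzled receptor for which the study designed a primer pair. The primers are shown because they are the only reagent tied to a member, in lower case from 5' to 3', with no place in the genome assigned to them.
FZD8 forward: ggcccatcatattcctctcgg
FZD8 reverse: ccagcacggcgatagactt
The forward primer has 21 bases and a GC share of 57.1%, and the reverse primer has 19 bases and a GC share of 57.9%. Which of the identifiers called *FZD8* they amplify was not tested.

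The symbol alone did not always identify the gene. A total of 8 symbols (*FZD2*, *FZD8*, *GDF11*, *HES1*, *JAG1*, *MAML3*, *PTCH1* and *WNT11*) stood on 17 identifiers, and the GO and KEGG terms listed for these identifiers were compared. One identifier called *FZD8* (ENSBGRG00000010581) carries receptor terms of the pathway and has a span of 3499 bp, whereas the other (ENSBGRG00000012792), 1636 kb away on chromosome 12, carries spliceosome terms and 11 exons. The first *PTCH1* (ENSBGRG00000009313) is listed in the KEGG Hedgehog pathway, and the other (ENSBGRG00000009781), 437 kb away on chromosome 7, carries helicase terms. The same split separated *GDF11* ENSBGRG00000010067, with growth factor terms, from ENSBGRG00000000304, which lies 8.96 kb away with terms for DNA binding and the nucleus. In the following, an identifier without a pathway term whose symbol is also borne by an identifier with one is called a second identifier. There were 8 of them, with 12 of the 139 peaks. Neither *JAG1* identifier carries a pathway term, and both were kept. They lie on opposite strands of chromosome 12 without overlap, so they are not parts of the same gene. Which of them encodes the Notch ligand was not tested.

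Of the 87 identifiers, 57 (65.5%) carried a KEGG entry of the 4 pathways or a GO term that names one of them, its ligands or its receptors (growth factor activity included). Another 12 (13.8%) carried none of these but GO terms of a retrotransposon (among them RNA-directed DNA polymerase activity), including *DKK3*, *LEF1*, *SUFU*, *TGFBR1*, *ACVR2A* and *BMP6*. This term was held by 14.8% of all identifiers with a peak. For the 57 with a pathway entry or term, no share over all identifiers is given here. By KEGG, 16 of the 30 Wnt identifiers were in the Wnt pathway, 13 of 29 in the TGF-beta pathway, 3 of 6 in the Hedgehog pathway and 8 of 13 in the Notch pathway. Over all identifiers with a peak, these pathways held 52, 31, 17 and 23, of which 17, 13, 3 and 9 were members. *SMAD3* was listed in the Wnt as well as the TGF-beta pathway and *DVL3*, which passes on the Frizzled signal, in the Wnt as well as the Notch pathway.

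Peaks of the members lay in exons in 65.5% of cases (91 of 139, Wilson 95% interval 57.2% to 72.9%), in the 3' UTR in 26.6% (37 peaks, 19.97% to 34.5%) and in the 5' UTR in 7.91% (11 peaks, 4.48% to 13.6%). Over all 16186 peaks these shares were 70.3%, 20.8% and 8.82%. Without the 15 peaks on symbols that match by name only, of which 9 lay in the 3' UTR, the members' shares were 68.5%, 22.6% and 8.87% (n = 124), and the intervals for exons (59.9% to 76.1%) and the 3' UTR (16.1% to 30.7%) held the shares of all peaks. The intervals cover counting error only and take peaks as independent, although peaks of 1 gene are not. Among exon peaks, 28 of 91 (30.8%, interval 22.2% to 40.9%) lay in the last exon, beside 18.2% of all exon peaks. Both counts take the exon of a single-exon transcript as its last, which holds for 5 of the 28. In transcripts with at least 3 exons the members' share was 21.8%.

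Exon number and class were then joined into a place in the transcript: the 5' end (5' UTR or exon 1), the 3' end (3' UTR or last exon), an internal exon, or the only exon. The 3' end held 60 of 139 member peaks (43.2%, interval 35.2% to 51.5%) and 30.6% of all peaks. Internal exons held 51 (36.7%) beside 47.7%, the 5' end 23 (16.5%) beside 18.7%, and single-exon transcripts 5 (3.597%) beside 3.05%. Among peaks of at most 1000 bp the 3' end held 50 of 83 member peaks (60.2%) and 46.1% of all such peaks. Without the second identifiers the 3' end share was 47.2% (60 of 127), and without the symbols that match by name only it was 40.3% (50 of 124, interval 32.1% to 49.1%), or 56.9% (41 of 72) at widths of at most 1000 bp. No test was made of these differences.

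**Figure D1:**
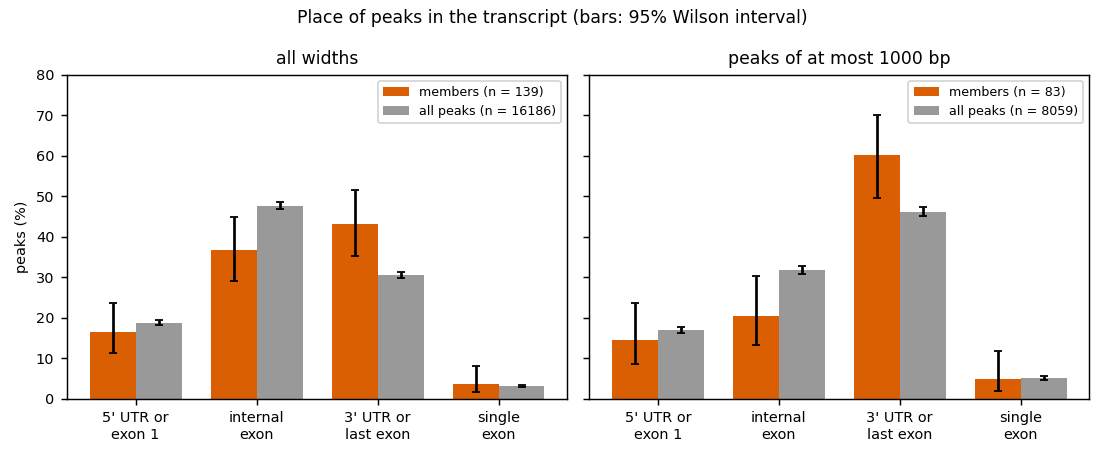
Share of peaks (%) by place in the transcript for the members (orange), symbols that match by name only included, and for all peaks (grey), over all widths on the left and for peaks of at most 1000 bp on the right, with 95% Wilson intervals as error bars. The members' bar is above that of all peaks for the 3' UTR or last exon (43.2% against 30.6%, and 60.2% against 46.1%) and below it for internal exons.

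Widths are distances on the genome, so that introns inside a peak count. The median was 549 bp for the members (quartiles 296 and 3549 bp, range 148 to 316622 bp) and 1022 bp for all peaks, and 83 of 139 member peaks (59.7%) were at most 1000 bp wide, beside 49.8% of all. Most members had a single peak: 52 of 87 identifiers had 1, 22 had 2, 10 had 3, 2 had 4 and 1 had 5. The mean was 1.60 peaks per identifier, beside 1.80 over all 8986. The 5 peaks belonged to *TGFBRAP1*, a receptor-associated protein that matches by name only, and all lay in its 3' UTR within widths of 150 to 349 bp.

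The families differed in where their peaks lay. This was noticed after the positions had been seen and was not tested, and second identifiers were left out. All 10 WNT genes in the peak list had a peak at the 3' end of the transcript, while 44.9% of all identifiers with a peak had one there. With peaks of at most 1000 bp only, it was 9 of 9 WNT genes, beside 54.8% of all such identifiers. *WNT6*, *WNT5A*, *WNT9B*, *WNT11*, *WNT5B* and *WNT10B* had it in the 3' UTR, and *WNT2*, *WNT3*, *WNT7A* and *WNT9A* in the last exon. In *WNT6* it ran from 32796511 to 32797006 on chromosome 2 (496 bp, LU_Bosgru_v3.0). In *WNT5A*, which signals mostly without beta-catenin, the 3' UTR peak (chromosome 22, 17313591 to 17313989) adjoined a peak of 8756 bp assigned to exon 3 of 5. *WNT9B* had another peak, of 14069 bp in the 5' UTR class that ran beyond the listed transcript.

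All 3 TGF-beta ligands showed the opposite place. *TGFB1*, *TGFB2* and *TGFB3* had 1 peak each, in exon 1 of 7, 8 and 7 exons, and none elsewhere. The peak of *TGFB2* was 246 bp wide (chromosome 14, 16362649 to 16362894) and that of *TGFB3* 250 bp (chromosome 11, 77928881 to 77929130), whereas that of *TGFB1* spanned 3449 bp. Of the SMAD genes, 6 of 7 had a peak at the 5' end by class or exon, beside 29.3% of all identifiers with a peak. Not all lay near the start of the listed transcript, measured from 0 (5' end) to 1 (3' end) with introns included. The 5' UTR class peak of *SMAD1* spanned 30172 bp and reached 0.615, and that of *SMAD5* (400 bp) lay from 0.663 to 0.669. *SMAD2*, an effector of TGF-beta and activin, had a peak of 150 bp in exon 1 of 10 and another of 200 bp in the 3' UTR. *SMAD4*, the common partner of the other SMADs, had a peak of 24583 bp in the 5' UTR class and 1 of 200 bp in the 3' UTR. The inhibitory *SMAD6* had 2 peaks at the 5' end, of 450 and 150 bp, and the inhibitory *SMAD7* had 1 in exon 1 and 1 in the last exon. *SMAD3* was the exception, with a single peak of 4737 bp in exon 3 of 10.

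The 5 BMP and GDF ligands (*BMP2*, *BMP4*, *BMP6*, *GDF9* and *GDF11*) had 7 of their 8 peaks at the 3' end and none at the 5' end. *BMP4* had 1 peak of 549 bp in exon 3 of 3. The activin subunit gene *INHBB* likewise had its peak (590 bp, chromosome 2, 70873652 to 70874241) in the last of 2 exons. *INHBA*, which encodes the other activin subunit, had a 3' UTR peak of 398 bp beside a peak of 11536 bp in the 5' UTR class, which took up 83.5% of the listed transcript's span of 13823 bp.

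Receptors of the TGF-beta family had 4 of 8 genes with a 3' end peak and none with a 5' end peak. The 3' UTR peaks were those of the type II receptors *ACVR2A* (1401 bp), *ACVR2B* (397 and 1679 bp) and *BMPR2* (17732 bp) and of the type I receptor *BMPR1B* (1694 bp). *TGFBR1*, the type I receptor for TGF-beta, had a peak of 148 bp in exon 4 of 9, which with 2 peaks of *GDF11* was the narrowest of all members. *ACVR1*, *ACVR1B* and *BMPR1A* each had 1 peak in an internal exon.

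Among the Frizzled receptors, the single-exon *FZD1* had 3 peaks of 349, 498 and 448 bp that covered 18.0%, 25.7% and 23.1% of its 1938 bp. *FZD8* (ENSBGRG00000010581) had 1 peak of 392 bp in exon 2 of 6 (chromosome 12, 16990947 to 16991338). *LRP6*, the co-receptor, had 4 peaks, in exons 6, 7 and 9 of 23 and in the 3' UTR. *AXIN1*, a scaffold of the complex that destroys beta-catenin, had 1 peak each in the 5' UTR, exon 5 of 10 and the 3' UTR.

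*NOTCH1* and *NOTCH2* showed the same arrangement. Both had 2 peaks in exon 36 of 36 and 1 in exon 35, and *NOTCH2* had 1 more in exon 27. In *NOTCH1* the exon 36 peaks were 151 and 301 bp wide and the exon 35 peak 451 bp (chromosome 9, 13457760 to 13458210). In *NOTCH2* they were 250, 250 and 548 bp (exon 35: chromosome 3, 50272739 to 50273286). *NOTCH4* had 1 peak in exon 29 of 30, which ended at 0.996 of the listed transcript. The coactivator genes *MAML1* and *MAML2* each had 2 peaks assigned to exon 2, and *MAML3* (ENSBGRG00000022425) had 1 there and 1 in exon 4. The wider *MAML1* peak (8478 bp) and the exon 4 peak of *MAML3* (7438 bp) ran to the 3' end of the listed transcript. One of the *MAML2* peaks spanned 127984 bp, or 85.9% of the listed transcript. *JAG2*, which encodes a Notch ligand, and both identifiers called *JAG1* had peaks in the 3' UTR. *HES1* (ENSBGRG00000024386), a Notch target, had 1 of 150 bp in exon 5 of 5.

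In the Hedgehog pathway, *SMO* had a peak of 348 bp in exon 12 of 12. *PTCH1* (ENSBGRG00000009313) had peaks in exon 1, exon 13 and the 3' UTR of a transcript with 23 exons, the first of them 30484 bp wide. *SUFU*, an inhibitor downstream of SMO, had 1 of 20468 bp in exon 8 of 13. Peaks on the 6 Hedgehog identifiers, the second *PTCH1* identifier included, were wide, with a median of 11923 bp over 10 peaks. Without that identifier the median over 8 peaks was the same. Hedgehog genes outside the symbol rule did not share this, with a median of 945 bp over 32 peaks, beside 1022 bp for all peaks.

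**Figure D2:**
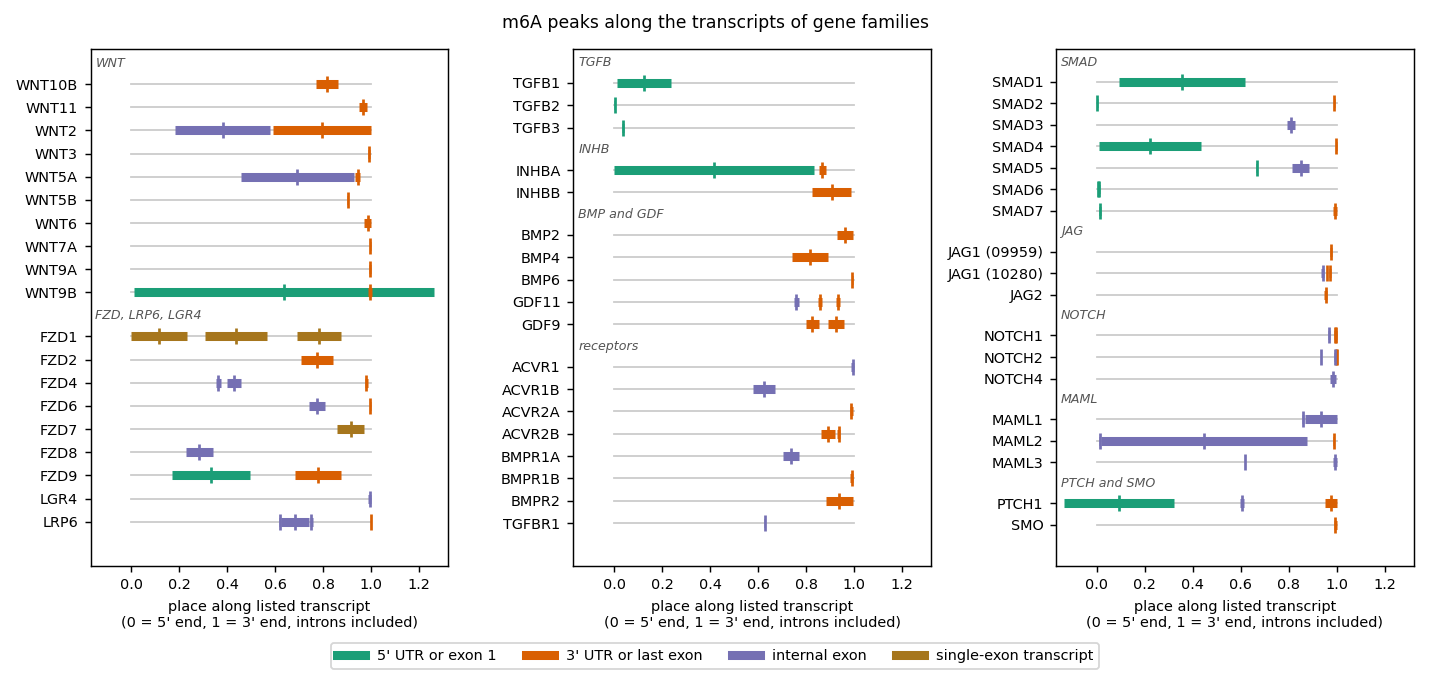
Place of each peak (coloured bar, tick at its centre) along the listed transcript from the 5' end (0) to the 3' end (1), introns included, 1 line per identifier and second identifiers left out. Orange bars stand towards the right on all 10 WNT lines, the 3 TGFB lines have a green bar at the left only, and the *NOTCH1* and *NOTCH2* bars crowd at the right end.

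Some assignments could not be taken at face value. The widest peak of all members, 316622 bp on chromosome 16, was listed under a second identifier of *MAML3* (ENSBGRG00000022464), whose transcript spans 1251 bp and whose FPKM was listed at 0 in all 3 animals, while the exon named for the peak belongs to the other *MAML3* identifier. For 1 of the exon peaks of *HHIP* and *LEF1* each, the exon is named by a transcript alone, with no gene identifier. That peak of *LEF1* lies upstream of the listed transcript, and since its exon is numbered 2 of 2 it was counted at the 3' end. A total of 7 of 139 peaks reached outside the listed transcript. Peaks over 10000 bp made up 22 of 139 (15.8%), beside 14.4% of all.

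FPKM was at least 1 in all 3 animals for 76 of the 87 identifiers. The median of the means over animals was 4.76 for the members and 7.36 for all identifiers with a peak. Leaving out the second identifiers and the symbols that match by name only, 70 identifiers could be put in order, of which 63 were at least 1 and 16 at least 10 in every animal. In this order, only 3 of 69 neighbouring pairs had values that did not overlap, below *DKK3*, below *INHBB* and below *MAML2*. Other neighbours did not differ beyond the spread between animals.

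Of the genes grouped by symbol as Wnt inhibitors, *DKK3* had the highest level of all, with 200, 214 and 178 FPKM in TES5, TES6 and TES7. DKK3 is a secreted protein of the Dickkopf family, and the identifier is one of those with retrotransposon terms and no pathway term. Its place among the Wnt inhibitors rests on the name alone. The single peak of *DKK3*, 42507 bp wide and assigned to exon 3 of 8, covered 75.1% of the listed transcript. *AXIN1* followed with 12.9, 12.1 and 14.1 FPKM, and *AXIN2*, a target as well as an inhibitor of the pathway, was lowest with 2.23, 3.45 and 3.65. All 3 *DKK3* values lay far above those of every other gene in the order.

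WNT ligands spanned a wide range. *WNT6* was highest, at 28.2, 27.5 and 30.5 FPKM, followed by *WNT9B* at 14.8, 15.8 and 14.7. Both were even across animals, with coefficients of variation of 5.46% and 4.02%. *WNT5A* had 4.82, 9.12 and 6.496 FPKM, highest in TES6, and *WNT2* 3.33, 0.909 and 2.53, lowest in TES6. *WNT9A* was lowest in TES5, with 2.02, 3.03 and 3.82. At the lower end were *WNT10B* (0.138, 0.0713 and 0.156), *WNT3* (0.230, 0.151 and 0.179) and *WNT5B* (0.213, 0.2005 and 0.267), all of which nevertheless had a peak in the list.

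The Frizzled receptors were more alike, with means from 1.88 (*FZD9*) to 11.5 (*FZD1*) and with *FZD8* (ENSBGRG00000010581) at 4.54, 5.40 and 5.83 FPKM. *FZD1* was highest in TES5 at 13.8, 10.8 and 10.04 FPKM. *LRP6* stood at 6.91, 6.84 and 7.94. Of the transducers, *DVL3* had 10.1, 11.6 and 11.1 FPKM and *DVL1* 6.88, 6.67 and 7.44, while the transcription factor gene *LEF1* had 3.10, 4.22 and 2.48.

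Ligands of the TGF-beta family were led by the activin subunits. *INHBB* had 31.5, 21.6 and 24.9 FPKM, highest in TES5, and *INHBA* 16.3, 16.5 and 13.7, lowest in TES7. *TGFB1* had 14.7, 16.3 and 13.8 FPKM, beside 8.40 ± 0.72 (SD, n = 3) for *TGFB3* and 1.95 ± 0.55 for *TGFB2*. The BMP and GDF ligands were low: *BMP2*, lowest of the ligands, had 1.33, 1.33 and 2.03, and *BMP4* 1.84, 1.63 and 1.75. *GDF9*, known from the oocyte, had 2.18, 1.74 and 1.18. *GDF11* (ENSBGRG00000010067) had 2.39, 2.47 and 1.39 FPKM, whereas the second identifier of that symbol had 47.3, 35.8 and 41.7, so that the choice of identifier decides whether *GDF11* is a low or a high member.

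TGF-beta family receptors lay within a narrow band, from 3.40 to 8.87 FPKM per animal except for *BMPR1A* in TES5 (3.23) and *BMPR1B*, the lowest (0.597, 0.659 and 1.04). *ACVR1* was highest (6.28, 8.62 and 8.87) and *ACVR2B* next (6.47, 7.42 and 7.66), and the activin receptor gene *ACVR2A* had 5.07, 5.14 and 4.05. *TGFBR1* had 4.59, 6.38 and 7.58, lowest in TES5. Among the SMADs, *SMAD2* (12.6, 15.6 and 14.6) and *SMAD4* (11.4, 16.6 and 13.2) were highest, *SMAD3* had 7.25, 7.96 and 7.93, and *SMAD6* was lowest at 1.02, 1.05 and 1.13. Of the proteins that limit the pathway, the ubiquitin ligase gene *SMURF2* had 9.24, 10.2 and 10.05 FPKM, *SMURF1* 6.36, 6.003 and 4.93, and *LTBP1*, which holds latent TGF-beta, 3.03, 4.07 and 4.62.

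The Notch receptors were lowest in TES5, apart from *NOTCH4*. *NOTCH2* had 11.3, 17.2 and 19.7 FPKM and *NOTCH1* 6.75, 12.6 and 10.9, whereas *NOTCH4*, known from endothelium, had 1.67, 1.12 and 1.41. The ligand gene *JAG2* had 11.3, 11.1 and 12.6. The identifiers called *JAG1*, on opposite strands, had 3.18, 4.08 and 4.01 (ENSBGRG00000009959) and 1.58, 2.17 and 1.98 (ENSBGRG00000010280). *MAML1* had 11.6, 14.3 and 14.0 and *MAML2* only 0.564, 0.658 and 0.619. *HES1* (ENSBGRG00000024386) had 2.55, 2.20 and 2.58 FPKM, beside 6.49, 10.3 and 7.25 for the second identifier, which has 3 peaks, 30 exons and no pathway term.

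Of the Hedgehog genes, *PTCH1* (ENSBGRG00000009313) had 10.9, 14.0 and 14.0 FPKM. *SMO*, the transducer that PTCH holds back, had 6.59, 10.6 and 9.13, and *SUFU* was lowest with 2.35, 3.28 and 3.35. *PTCH1*, *SMO* and *SUFU* were lowest in TES5, while *HHIP*, which binds Hedgehog ligands away from their receptor, was highest there (4.81, 3.57 and 3.61). The second *PTCH1* identifier had 3.91, 3.78 and 4.35.

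Symbols that match by name only were led by *FSTL1* (27.6, 35.8 and 37.6 FPKM), a secreted glycoprotein, and by the kinase gene *BMP2K* (16.7, 19.4 and 19.0), and the lowest was *HHIPL2* (0.561, 0.866 and 0.126). Over all 87 identifiers, coefficients of variation above those of *WNT5A* (31.8%), *WNT9A* (30.5%) and *NOTCH1* (29.7%) were found, at a mean of at least 1 FPKM, for *WNT2* (54.6%) and for a second identifier of *WNT11* (ENSBGRG00000017782, 56.4%) only.

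**Figure D3:**
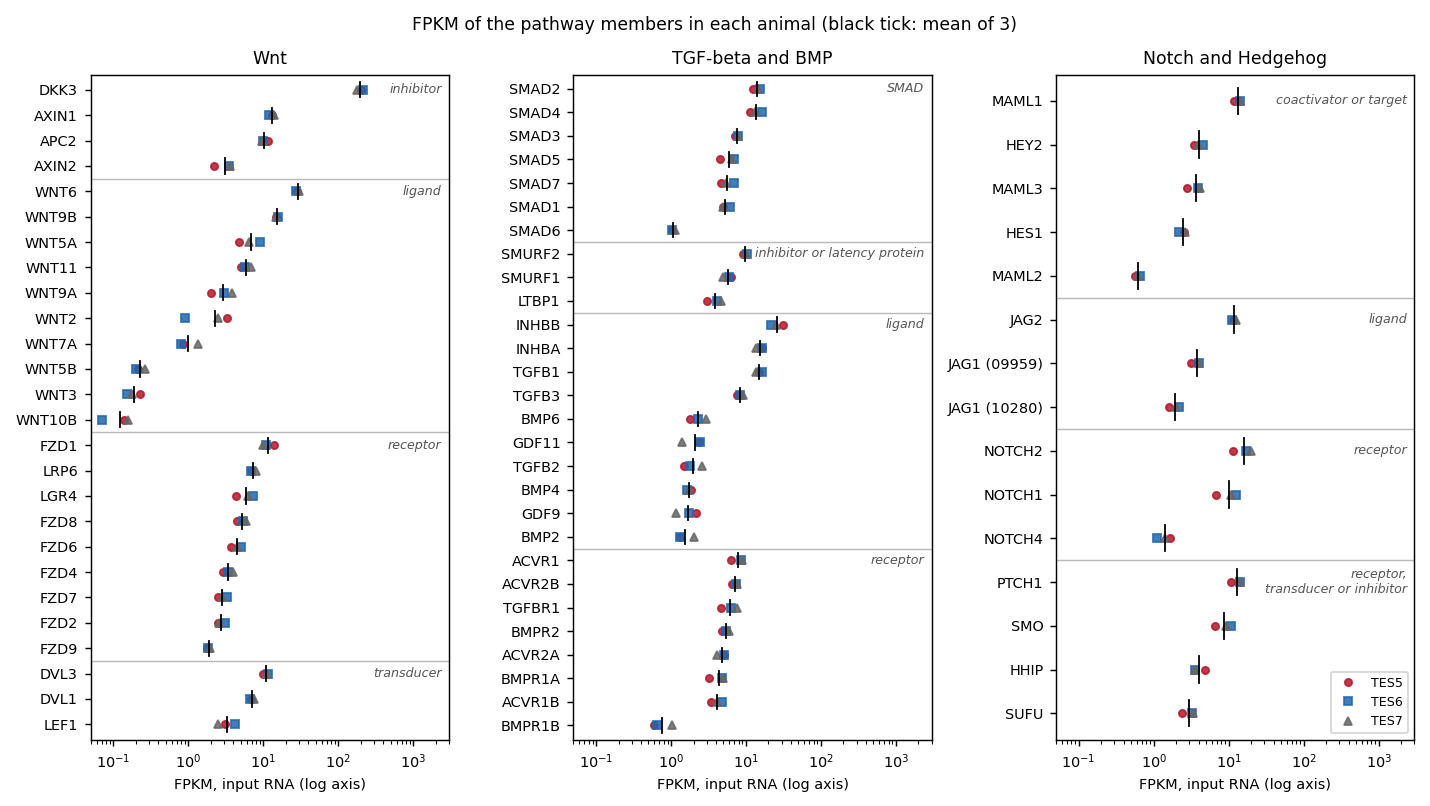
FPKM in the input RNA of each animal (log axis) for 69 pathway identifiers by pathway and role, with TES5 as red circles, TES6 as blue squares, TES7 as grey triangles and the mean of 3 as a black tick. *DKK3* stands alone near 200 FPKM, the WNT ligands spread from 28.7 (*WNT6*) to 0.122 (*WNT10B*), and the red circle is often the leftmost point.

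The members tended to be lowest in TES5. Of the 76 identifiers with at least 1 FPKM in every animal, 51 (67.1%) were lower in TES5 than in both other animals, beside 41.8% of all 7629 identifiers with a peak that passed the same minimum. The other members were lowest in TES6 (12) or TES7 (13). By pathway, 14 of 24 Wnt, 19 of 28 TGF-beta and BMP, 3 of 6 Hedgehog and 8 of 11 Notch identifiers were lowest in TES5, together 44 of 69 (63.8%), and the other 7 of the 51 were all 7 of the symbols that match by name only. The median difference of TES5 from the mean of TES6 and TES7 was -0.19 on the log2(FPKM + 1) scale for the members, with or without those 7, and -0.02 for all. Members highest in TES5 were 10 in number: *APC2*, *BMP4*, *FZD1*, *GDF9*, *HHIP*, *INHBB*, *NOTCH4*, *SMURF1* and the second identifiers of *GDF11* and *WNT11* (ENSBGRG00000017688). Without the second identifiers, 48 of 70 (68.6%) were lowest in TES5.

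Cell markers moved between the animals as well. All 4 Sertoli markers with a peak were lowest in TES5, with summed FPKM of 59.5, 74.6 and 72.5 in TES5, TES6 and TES7, as were all 3 spermatogonial markers (15.8, 18.9 and 24.2) and 4 of 5 peritubular myoid markers (364, 415 and 395). The endothelial sums were 14.9, 16.8 and 13.5, and the macrophage sums 11.7, 12.8 and 14.5. The single Leydig cell marker, *STAR*, had 100.2, 108 and 112. Spermatocyte markers on 1 identifier (*SYCP1*, *SYCP3* and *MEIOB*) ran the other way, with sums of 40.6, 27.8 and 31.1, and so did the spermatid gene *ODF2* with 44.0, 30.6 and 17.5. Their part in the difference of TES5 was not tested, and with 1 library per animal a difference of the animal and a difference of the library cannot be told apart.

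**Figure D4:**
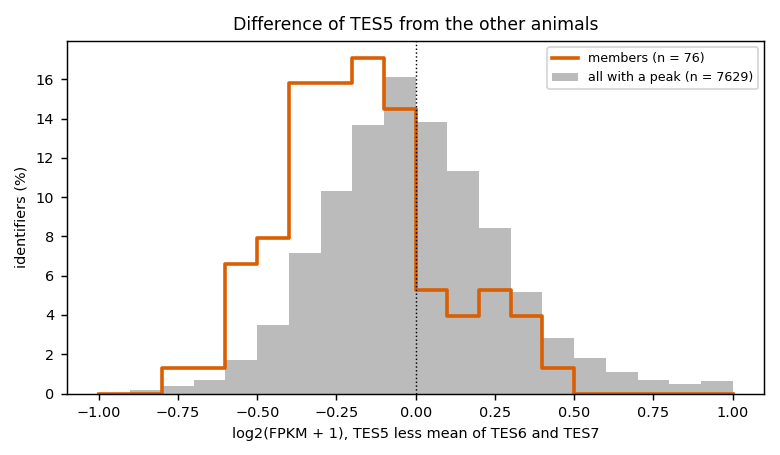
Difference of TES5 from the mean of TES6 and TES7 in log2(FPKM + 1), as the share (%) of the 76 member identifiers (orange line), 7 that match by name only included, and of all 7629 identifiers with a peak (grey bars) in each step of 0.1, with 37 of the latter beyond 1 in either direction placed in the outermost bars. The orange line is shifted to the left, with 61 of 76 members below 0 (80.3%) beside 53.7% of all.

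Pathway genes outside the symbol rule were taken from a list of textbook components. Of these, 64 symbols on 71 identifiers had 148 peaks. Symbols with a peak were 21 of 40 for Wnt, 15 of 31 for TGF-beta and BMP, 11 of 17 for Hedgehog and 17 of 30 for Notch. The whole series had 8986 identifiers with a peak, 211 of them without FPKM, and 20953 identifiers with FPKM. The 3' end held 52 (35.1%) and the 5' end 20 (13.5%), beside 30.6% and 18.7% of all peaks. Their median FPKM was 9.14, beside 7.36 for all identifiers with a peak. Of those with at least 1 FPKM in every animal, 37 of 68 (54.4%) were lowest in TES5, beside 41.8% of all. The Hedgehog ligand *DHH* had 20.1, 20.7 and 16.2 FPKM and a peak of 676 bp in the 3' UTR. The transcription factors of that pathway had many peaks at low expression: *GLI2* had 6 peaks, 5 of them in the 3' UTR or the last exon, and 1.71, 2.04 and 2.21 FPKM, *GLI3* had 5 peaks and 1.18, 1.82 and 1.67 FPKM, and *GLI1* had 3 peaks and 3.46, 4.40 and 4.17 FPKM. *GLI1*, *GLI2* and *GLI3* were all lowest in TES5.

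Of the Wnt genes on that list, *GSK3B*, the kinase that marks beta-catenin for destruction, had 11.8, 12.2 and 12.7 FPKM and 1 peak of 122477 bp. The symbol *CTNNB1* (beta-catenin) stood on 2 identifiers with 1 peak each, at 4.18, 2.49 and 2.93 FPKM (ENSBGRG00000021364) and 5.10, 5.80 and 4.61 (ENSBGRG00000021424), and neither carries a term of the pathway. Most peaks, 7, were on *SPEN*, a corepressor of Notch targets, at 7.98, 7.92 and 8.51 FPKM. Like *GLI2*, the acetyltransferase genes *CREBBP* and *EP300* had 6 peaks each, with 7.19 ± 0.98 and 26.1 ± 4.03 FPKM (SD, n = 3).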

How the data were processed

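The authors trimmed reads with Trimmomatic, removed ribosomal reads with SortMeRNA and aligned the rest to the yak assembly LU_Bosgru_v3.0 (Ensembl release 99) with HISAT2 2.0.4. They called peaks with MeTDiff and annotated them with ChIPseeker. The deposited FPKM values of the 3 input libraries were made by the authors with a program not given in the sources used here. They are not counts, so that no count test was used, and they keep no read numbers, so that no detection limit was given for a gene.

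Members were found by symbol and joined to FPKM by identifier. Shares carry Wilson 95% intervals. Means and SD were taken over 3 animals, and differences between animals on log2(FPKM + 1). With 1 condition, no test was made. Work was done in Python 3.11.15 (pandas 2.3.3, SciPy 1.17.1, matplotlib 3.10.9), and the procedures were tested on simulated data. The members' rule uses symbols only, but the members, roles and lists were chosen with earlier results of these data known. Genes named were those with at least 4 peaks, the highest 2 and the lowest FPKM in each role, the 5 largest coefficients of variation, extreme widths, FPKM of 0, and set testis genes, of which *APC*, *HEY1* and *TGFBR2*, and outside the symbol rule *RBPJ*, *INHA* and *AMH*, are not analysed here. Other family members, and the terms that define second identifiers, were chosen after values were seen. The values of 2 further genes are not reported here. Sequence motifs were not analysed, since no genome of this build was used here.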

Additional observations from a re-analysis of the deposited data

How the results depend on the processing

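No paired analysis was possible because peaks came without values per animal and expression without an IP counterpart. Of 55 alternatives to 12 results, 46 were taken as unchanged, which meant within the main value's interval or within 1.5 times a count. The difference of TES5 has no interval and is not a count, so neither limit covers its alternatives. Of these, only that with rescaled libraries was taken as moved. Among peaks of at most 1000 bp, the members' exon share was 56.6% and the 3' UTR share 36.1%, beside 64.4% and 28.1% of all such peaks. The last exon share of exon peaks, single-exon transcripts included, was 51.1% and the 3' end share, without them, 60.2%, beside 35.8% and 46.1%. Weighted by width, the exon share was 83.0% and the 3' UTR share 3.82%. The last exon share fell to 21.8% with transcripts of 1 or 2 exons left out. For this share and the weighted ones, no value over all peaks is given here. The median FPKM was 5.34 among identifiers with at least 1 FPKM in every library, and 4.56 to 4.88 with each animal left out. The median difference of TES5 was -0.28 with the libraries rescaled to equal sums, where 76.3% of members and 54.1% of all identifiers were lowest in TES5, and stayed at -0.18 without either other animal. In each of these values the cause was not tested. The alternatives without second identifiers, the place in the transcript, and leaving out name-only symbols for place, width, last exon share and the difference of TES5 were added after seeing the data.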

Other observations

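The 8 member symbols that stood on several identifiers were each confined to 1 chromosome, as were 764 of the 768 such symbols in the whole list (99.5%). Of the 8 second identifiers, that of *MAML3* lay within the span of its namesake, and the other 7 lay 8.96 to 1636 kb away, with a median of 203 kb. The second identifiers of *WNT11* (ENSBGRG00000017688 and ENSBGRG00000017782) lay 172 and 203 kb from the identifier with Wnt terms, and that of *HES1* 455 kb.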
